A study of Macaca mulatta with 6 samples.

Results

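Neurotransmitter receptor subunits and synaptic adhesion molecules were examined in bulk RNA sequencing libraries of rhesus monkey (Macaca mulatta) spermatogonial stem cell (SSC) cultures grown with or without platelet-derived growth factor (PDGF). The genes were taken by symbol: the metabotropic (GRM), AMPA (GRIA), kainate (GRIK), NMDA (GRIN) and delta (GRID) glutamate receptor genes, the GABA-A (GABR), nicotinic (CHRN), muscarinic (CHRM), serotonin (HTR) and dopamine (DRD) receptor genes, and the neuroligins (NLGN), neurexins (NRXN), LRRTM genes, IGSF9 and IGSF9B. This gave 97 of the 17795 genes in the count table. Some matches are genes of another kind: the 3 HTRA genes encode serine proteases and GRID2IP encodes a protein that binds a delta glutamate receptor, so these were kept apart and 93 receptor and adhesion genes remained. Of the 93, 19 had no count in any library, 28 had 1 to 19 counts in total and 46 had 20 or more. The 2 groups were PDGF, 3 libraries of cultures with human PDGF, and PDGFNO, 3 libraries of cultures without it. The culture methods give 1 SSC medium, with serum, GDNF, EGF, bFGF, LIF and Wnt3a beside PDGF, and droplets of basement membrane extract for 3D culture, without saying which libraries came from droplets or how else the cultures without PDGF were kept. In each group the labels place replicate 1 in batch 1 and replicates 2 and 3 in batch 2. The labels give the tissue as testis, and neither they nor the methods state donors or whether replicates were separate cultures, so p-values measure the spread between these libraries, which may be partly technical.

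Fast excitation in the nervous system runs mainly through ionotropic glutamate receptors, which are tetrameric cation channels, and fast inhibition through GABA-A receptors, which are pentameric chloride channels. Metabotropic glutamate, muscarinic, dopamine and most serotonin receptors instead act through G proteins. Neurexins on the presynaptic side bind neuroligins and LRRTM proteins on the postsynaptic side and hold the synapse together, while IGSF9 and IGSF9B are immunoglobulin-family adhesion molecules best known from inhibitory synapses. Many of these genes are also transcribed outside neurons, and several GABA and acetylcholine receptor subunits are found on sperm.

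The libraries held 10593805 to 14102697 counts, more in every PDGF library than in any PDGFNO library. Several defining spermatogonial markers were at or near the detection limit: over all libraries MAGEA4 had 1 count, and per library ERBB4 had 0 to 2 counts and GFRA1 0 to 9, while the stromal markers COL1A1, COL1A2, PDGFRA, PDGFRB, DCN and LUM together held 11338 to 16477 CPM (counts scaled to a library's TMM-normalized total) with PDGF and 10689 to 13281 CPM without. Most of this stromal sum was COL1A1 and COL1A2. Among these stromal markers only PDGFRA was called, as lower with PDGF (log2 fold change -0.56, adjusted p = 0.0439 by edgeR). That call was lost without PDGF replicate 2 (0.148), and FIP1L1 had the same counts as PDGFRA in every library. COL1A1, COL1A2 and PDGFRB had positive and DCN and LUM negative log2 fold changes that did not pass the threshold. The 10 spermatogonial markers analysed summed to 377 to 437 CPM with PDGF and 351 to 463 CPM without, nearly all of it ID4, UCHL1 and FGFR3, which other cell types also transcribe. Of the 5 tested, UCHL1 was higher with PDGF (log2 fold change 0.51, adjusted p = 0.0319 by edgeR) and FGFR3 (-2.07, 0.0189) and the germ cell helicase gene DDX4 (-2.72, 0.0284) were lower, ID4 and DAZL did not pass the threshold (-0.32 and -2.32, adjusted p = 0.122 and 0.0688), and the median was -2.07. All 3 calls were lost without PDGF replicate 2 (adjusted p = 0.126 for UCHL1, 0.05004 for FGFR3 and 0.0956 for DDX4 by edgeR) or PDGFNO replicate 2 (0.118, 0.0661 and 0.101). SALL4 had 0, 0 and 1 counts in PDGF and 4, 10 and 6 in PDGFNO. In bulk samples fewer cells of a type cannot be told apart from less RNA per cell. Summed spermatid markers, which moved with the groups, were at 48.9 to 77.0 CPM with PDGF and 417 to 689 CPM without. All 3 spermatid markers tested, TNP1, TNP2 and TMEM190, were lower with PDGF, and the call of TMEM190 was lost without PDGF replicate 2 (adjusted p = 0.0607 by edgeR) and without PDGFNO replicate 2 (0.0607) or 3 (0.0667). The 8 neuron markers analysed summed to 92.3 to 123 CPM with PDGF and 79.9 to 120 CPM without, and 1 of 5 tested (NEFL) was higher. Most of this was SNAP25 (mean 55.8 CPM with PDGF and 61.5 CPM without), NEFL (28.9 and 16.0) and SYT1 (16.5 and 14.0). RBFOX3, ELAVL3 and ELAVL4 had at most 10, 5 and 23 counts in any library. Of the glial markers, GFAP did not pass the threshold (log2 fold change -1.02, adjusted p = 0.105 by edgeR), and CDH19 had 1 count in all.

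Several of the genes are close relatives, and counts can be assigned to one of them only where their transcripts differ. IGSF9 and IGSF9B, which moved in opposite directions, are shown at their point of greatest likeness, the longest run of identical coding bases, so that it can be seen how far apart they are. The sequences are RefSeq transcripts of the Mmul_10 assembly, 60 coding bases each, 5′ to 3′, with the shared run in capitals. IGSF9 (chr1:90997681-91016425, plus strand) and IGSF9B (chr14:126504146-126564839, minus strand) shared 21 bases, from coding base 304 in IGSF9 and 319 in IGSF9B, counted from the A of the start codon.
IGSF9: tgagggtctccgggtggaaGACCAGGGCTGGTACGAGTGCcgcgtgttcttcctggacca
IGSF9B: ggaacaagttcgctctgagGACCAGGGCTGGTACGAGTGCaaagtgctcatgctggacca
Both differ around it, and they shared no stretch of 50 coding bases. Across the 49 genes of the whole rule with 20 or more counts, 34 shared no 50-base stretch, on either strand, with a transcript of any other gene. Exceptions that bear on the results included NLGN4X and NLGN4Y, with 21.5% and 20.8% of their 50-base stretches in common, and CHRNE with 26.9% shared with a neighbouring gene. The shared part was 8.44% for CHRNA10, 7.12% for IGSF9, 2.28% for GRID1, 2.13% for GABRB1 and 0.34% for GRIA1. The read length of these libraries is not given in the sources used here.

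PDGF and PDGFNO were compared across all genes by edgeR's quasi-likelihood test, with Benjamini-Hochberg adjusted p under 0.05 as the threshold, and 31 of the 93 genes passed the count filter of that test. With PDGF, 3 of the 31 were higher and 8 lower. This compares with 18.3% of all 11539 genes tested that were called, 7.61% as higher and 10.7% as lower, and with a median of 0.02 over all genes on the log2 scale. In the tested receptor and adhesion genes 9.68% were called higher and 25.8% lower, the median was -0.52, and 21 of 31 values were negative. In 4 of the 31 all PDGF libraries lay above all PDGFNO libraries in CPM and in 15 below them, against 18.2% and 19.3% of all genes. IGSF9B, GRM4 and GRIA1 rose. HTR2B, GRIN2A, NRXN2, GRIN2B, GABRB1, DRD4, IGSF9 and GRIK5 fell. With the replicate number as a block in the model, 5 were higher and 12 were lower, in a fit that called 60.1% of all genes, 31.1% higher and 29% lower. The 6 additional calls were CHRNA5 and GRM7 (higher) and GRIA2, GRIN1, GRIN3B and GRM6 (lower). None of the 11 calls made without the block was lost with it, and their edgeR adjusted p ran from 2.00e-12 (HTR2B) to 0.00283 (GRIN2B). Other settings passed other numbers of the 93 genes to the test. With replicates 2 and 3 of a group summed to 1 library, 2 of 38 were higher and 5 lower (2 and 4 among the 31), against 1.72% and 4.06% of all genes (5.78% in all). In batch 2 alone 4 of 34 were higher and 14 lower (4 and 12 among the 31), against 26.2% and 26.6% (52.8%). Requiring at least 10 counts in every library left 14 genes, 1 higher and 3 lower, against 6.6% and 8.23% (14.8%). It removed IGSF9B, GRM4, GRIN2A, GRIN2B, NRXN2, GABRB1 and DRD4, which passed the main filter only through the group where they were high. The shares over all genes were not matched for level. With DESeq2 3 of 52 were higher and 11 lower (3 and 9 among the 31), against 9.11% and 12.1% (21.2%).

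**Figure D1:**
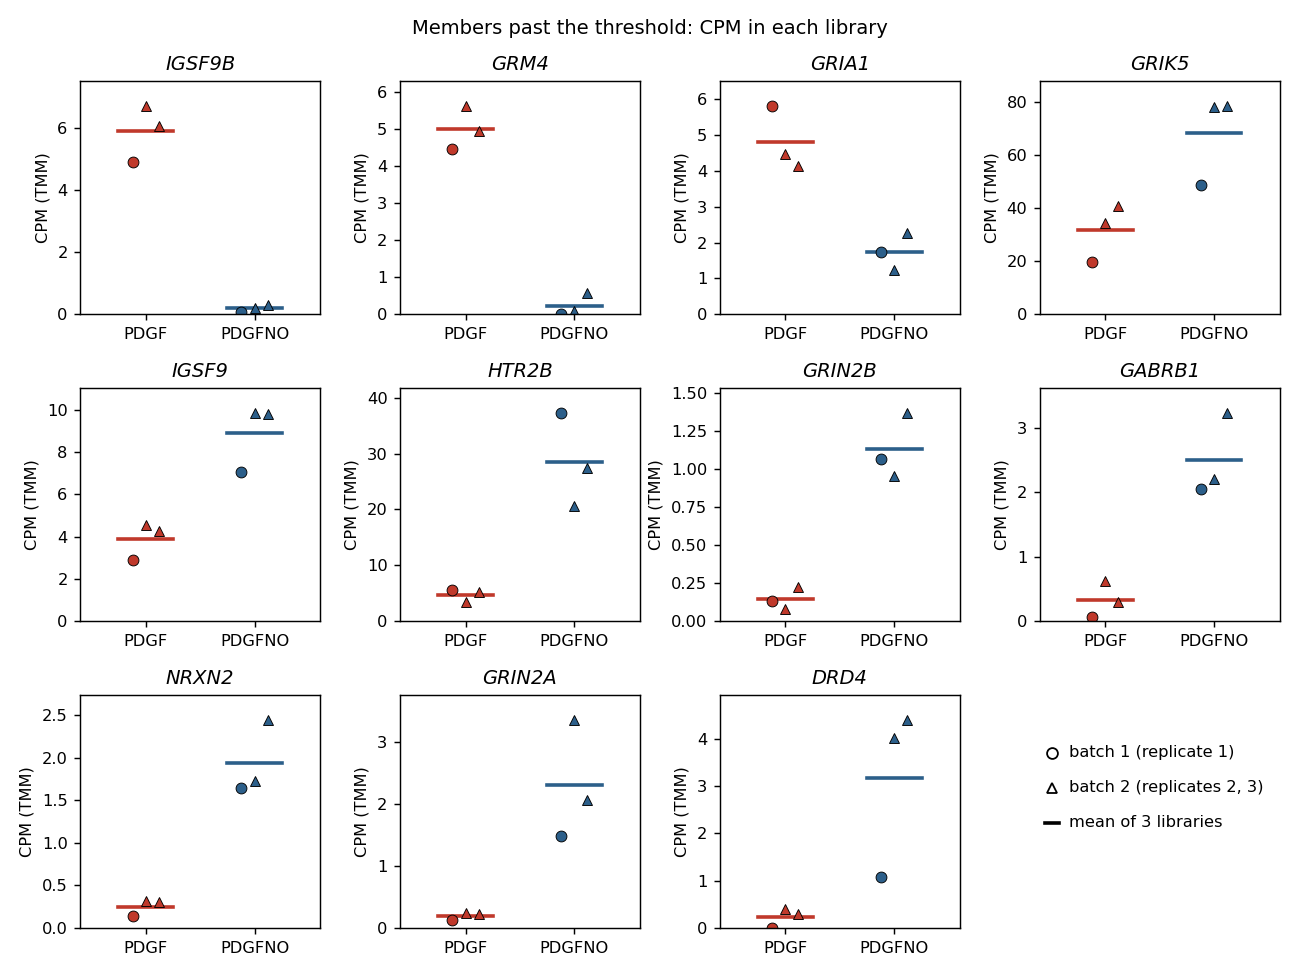
CPM after TMM normalization (y axis, linear from 0) of the 11 genes past the threshold in each of the 3 PDGF and 3 PDGFNO libraries, with circles for batch 1, triangles for batch 2 and a bar for the group mean. The groups do not overlap in any panel: IGSF9B, GRM4 and GRIA1 lie higher in PDGF and the other 8 higher in PDGFNO.

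Among ionotropic glutamate receptor genes, all 12 with 20 or more counts were tested, and 1 was higher and 3 were lower (8.33% and 25%, against 7.61% and 10.7% of all genes). The AMPA receptor subunit gene GRIA1 was at 5.81, 4.46 and 4.13 CPM in PDGF replicates 1, 2 and 3 and at 1.72, 1.25 and 2.25 CPM in PDGFNO. Every PDGF library lay above every PDGFNO library, with a log2 fold change of 1.46 (standard error, SE, 0.32, adjusted p = 0.0167 by edgeR), 1.73 within batch 1 and 1.33 within batch 2. GRIA2 and GRIA3 were more abundant: GRIA2, which encodes the subunit that makes these channels nearly impermeable to calcium, was at 21.7 ± 4.68 CPM with PDGF and 29.9 ± 7.20 CPM without (SD, n = 3). The log2 fold change of GRIA2 was -0.46 (adjusted p = 0.211 by edgeR, or 0.00134 with the replicate block), and within both batches the difference was close to this, at -0.47 and -0.45. GRIA3 was at 13.6 ± 1.75 and 11.3 ± 2.88 CPM (SD, n = 3) with overlapping groups (adjusted p = 0.486 by edgeR). GRIA4 had 3 counts in total. The call of GRIA1 was lost without PDGF replicate 2 (adjusted p = 0.0512 by edgeR) or PDGFNO replicate 2 (0.0578) and when replicates 2 and 3 were summed (0.0720).

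GRIK5, which encodes a kainate receptor subunit that forms channels only together with GRIK1, GRIK2 or GRIK3, was the most abundant gene of the set per length. It was at 19.6, 34.6 and 40.9 CPM in PDGF and at 48.9, 78.2 and 78.5 CPM in PDGFNO. All PDGF values were below all PDGFNO values, although batch 1 was the lowest library in each group, and the log2 fold change was -1.11 (SE 0.30, adjusted p = 0.0365 by edgeR), -1.31 in batch 1 and -1.06 in batch 2. Without PDGF replicate 2, PDGFNO replicate 2 or PDGFNO replicate 3 the adjusted p was 0.0844, 0.125 and 0.124, and with replicates 2 and 3 summed 0.174. In the fit without a block the call thus depended on these libraries, while with the replicate block its adjusted p was 2.21e-10 by edgeR. The partner subunits were barely detected, with 5 counts in total for GRIK1, 7 for GRIK2 and 0 for GRIK3.

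All 7 NMDA receptor subunit genes passed the filter, and GRIN2A and GRIN2B, which encode the main glutamate-binding subunits of the forebrain, fell. GRIN2A was at 0.135, 0.235 and 0.225 CPM in PDGF and at 1.48, 3.35 and 2.06 CPM in PDGFNO, which is 2, 3 and 3 counts against 18, 35 and 21. The log2 fold change was -3.48 (SE 0.54, adjusted p = 0.00399 by edgeR), -3.17 in batch 1 and -3.32 in batch 2, and no single library decided its call when left out. GRIN2B had 2, 1 and 3 counts in PDGF and 13, 10 and 14 in PDGFNO, a log2 fold change of -2.86 (SE 0.56, adjusted p = 0.0107 by edgeR), -2.72 in batch 1 and -2.77 in batch 2. Without PDGF replicate 2 its adjusted p was 0.0534. Both genes were thus low in every library and almost without counts under PDGF. GRIN1, the subunit present in all NMDA receptors, had 5, 14 and 9 counts in PDGF and 12, 27 and 26 in PDGFNO, a log2 fold change of -1.53 (adjusted p = 0.0966 by edgeR, or 0.0122 with the replicate block). GRIN3B, a glycine-binding subunit, was the most abundant NMDA gene at 2.98 ± 0.878 CPM with PDGF and 6.82 ± 3.13 CPM without (SD, n = 3), a log2 fold change of -1.19 (adjusted p = 0.0683 by edgeR, or 0.00116 with the block). For GRIN2C, GRIN2D and GRIN3A the groups overlapped, with log2 fold changes of 0.45, -0.48 and 0.01. The delta receptor gene GRID1 had 13, 8 and 10 counts in PDGF and 14, 27 and 17 in PDGFNO (log2 fold change -1.24, adjusted p = 0.0890 by edgeR), with a smaller difference in batch 1 (-0.39) than in batch 2 (-1.55).

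The metabotropic glutamate receptor gene GRM4 rose. It encodes a receptor that inhibits adenylyl cyclase and, at synapses, transmitter release. It had 66, 72 and 66 counts in PDGF and 0, 1 and 6 in PDGFNO, or 4.46, 5.63 and 4.96 CPM against 0, 0.0958 and 0.588 CPM. The PDGF libraries were close to one another and far above all PDGFNO libraries. The log2 fold change was 4.47 (SE 0.68, adjusted p = 0.00366 by edgeR), and the difference was 6.77 in batch 1, where the PDGFNO library had no count, and 4.14 in batch 2. The call held with each library left out in turn, with a highest adjusted p of 0.0203. GRM7, of the same inhibitory subgroup, had 24, 15 and 24 counts in PDGF and 11, 2 and 1 in PDGFNO. Its groups did not overlap, but the log2 fold change of 1.85 did not pass the threshold (adjusted p = 0.0890 by edgeR, or 0.0121 with the block), and PDGFNO replicate 1 stood above the other PDGFNO libraries. GRM6, the receptor of retinal bipolar cells, had 6, 14 and 3 counts in PDGF and 28, 19 and 17 in PDGFNO (log2 fold change -1.75, adjusted p = 0.0620 by edgeR, or 0.0074 with the block). GRM5 and GRM8 had 1 and 9 counts in total and GRM3 had none.

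In the GABA-A receptor family, 17 genes were analysed, 7 had 20 or more counts and 4 were tested. GABRA5 and GABRG3, neighbours on chromosome 7 (chr7:2072099-2153064 and chr7:1484980-2050274 in Mmul_10, minus strand), were the abundant members. GABRA5 was at 23.9, 17.5 and 17.9 CPM in PDGF and at 19.8, 17.4 and 21.2 CPM in PDGFNO. GABRG3 was at 12.9, 12.7 and 12.6 CPM in PDGF and at 15, 13 and 13.7 CPM in PDGFNO. The GABRA5 groups overlapped, the GABRG3 groups met almost edge to edge, and neither passed the threshold, with log2 fold changes of 0.02 (SE 0.19, adjusted p = 0.943 by edgeR) and -0.13 (SE 0.17, adjusted p = 0.621 by edgeR), and the sign for GABRA5 changed with the normalization. GABRB1, which encodes a beta subunit of the kind needed for a channel, fell: it had 1, 8 and 4 counts in PDGF and 25, 23 and 33 in PDGFNO. The log2 fold change was -2.91 (SE 0.60, adjusted p = 0.0129 by edgeR), -4.37 in batch 1 and -2.52 in batch 2, and the adjusted p was 0.0571 without PDGF replicate 3, 0.0532 without PDGFNO replicate 3 and 0.0623 with replicates 2 and 3 summed. GABRA3 and GABRA6, which encode alpha subunits, shared an uneven pattern in the PDGFNO group, with 19 and 12 counts in replicate 1, none in replicate 2 and 6 each in replicate 3.

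Acetylcholine receptor genes showed no call in the 4 nicotinic genes tested. CHRNB1, the beta subunit of the muscle receptor, was at 14.5 ± 1.70 CPM with PDGF and 14.8 ± 1.53 CPM without (SD, n = 3), a log2 fold change of -0.03 (SE 0.18, adjusted p = 0.918 by edgeR). CHRNA5, an accessory nicotinic subunit, was at 10.9, 11.6 and 7.21 CPM in PDGF and at 7.39, 6.99 and 5.58 CPM in PDGFNO. The groups overlapped by 1 library, the differences within batches were 0.55 and 0.54, and the log2 fold change of 0.57 did not pass the threshold without the block (adjusted p = 0.153 by edgeR, or 0.0146 with it). CHRNA7, which forms homomeric calcium-permeable channels, had 10 to 14 counts per library with PDGF and 13 to 15 without (log2 fold change -0.50, adjusted p = 0.373 by edgeR). CHRNB2 had 9, 9 and 22 counts in PDGF and 14, 12 and 34 in PDGFNO (adjusted p = 0.324 by edgeR). The muscle receptor genes CHRNA1, CHRND and CHRNG, which encode partners of CHRNB1, had 0, 12 and 9 counts in total.

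HTR2B, which encodes a Gq-coupled serotonin receptor known from fibroblasts, heart valve and smooth muscle, fell, with the lowest adjusted p of the 25 receptor genes tested. It was at 5.60, 3.44 and 5.18 CPM in PDGF and at 37.3, 20.7 and 27.4 CPM in PDGFNO. The lowest PDGFNO library was well above the highest PDGF library. The log2 fold change was -2.58 (SE 0.29, adjusted p = 9.47e-04 by edgeR), -2.73 in batch 1 and -2.49 in batch 2, and leaving out any 1 library kept it between -2.76 and -2.34 with a highest adjusted p of 0.00570. It was the only one of 14 serotonin receptor genes to pass the filter. HTR2A, HTR4 and HTR5A had 44, 35 and 44 counts in total and the others 17 or fewer, 5 of them none. The dopamine receptor gene DRD4, whose product lowers cyclic AMP, fell as well, with 0, 5 and 4 counts in PDGF and 13, 42 and 45 in PDGFNO. Batch 2 held the higher PDGFNO values, and the log2 fold change was -3.76 (SE 0.84, adjusted p = 0.0177 by edgeR), with -5.04 within batch 1 and -3.48 within batch 2. DRD4 lost its call without PDGF replicate 3 (adjusted p = 0.0559 by edgeR), without PDGFNO replicate 2 (0.0616) or 3 (0.0659), and with replicates 2 and 3 summed (0.0962). DRD2, which acts through the same class of G protein, had no count in any PDGF library and 7, 9 and 6 in PDGFNO.

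For the adhesion genes, the paralogs IGSF9 and IGSF9B changed in opposite directions. IGSF9B had 73, 86 and 81 counts in PDGF and 1, 2 and 3 in PDGFNO, or 4.93, 6.72 and 6.09 CPM against 0.0821, 0.192 and 0.294 CPM. It was the largest difference of the 31 genes, with a log2 fold change of 4.93 (SE 0.44, adjusted p = 3.35e-04 by edgeR), 5.33 in batch 1 and 4.49 in batch 2, and its adjusted p was at most 0.00331 with any library left out. IGSF9 was at 2.90, 4.54 and 4.28 CPM in PDGF and at 7.06, 9.87 and 9.80 CPM in PDGFNO, a log2 fold change of -1.19 (SE 0.27, adjusted p = 0.0177 by edgeR), with -1.27 within batch 1 and -1.15 within batch 2. Its call was lost without PDGF replicate 3 (adjusted p = 0.0546 by edgeR), without PDGFNO replicate 2 (0.0685) or 3 (0.0689) and with replicates 2 and 3 summed (0.132). The annotation places another transcript across 11% of the exon bases of IGSF9 on the other strand, and whether strand was used in counting is not given in the sources used here.

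NRXN2 was the neurexin that fell, with 2, 4 and 4 counts in PDGF and 20, 18 and 25 in PDGFNO. The libraries within each group were close together, and the log2 fold change was -2.92 (SE 0.49, adjusted p = 0.00523 by edgeR), -3.32 in batch 1 and -2.61 in batch 2, with a call in all 6 fits that left out a library. NRXN3 had 15 counts in total. The neuroligins, which bind neurexins, did not pass the threshold. NLGN3 had 9 to 13 counts with PDGF and 11 to 15 without (log2 fold change -0.52, adjusted p = 0.399 by edgeR), and NLGN4Y had 30 to 37 with PDGF and 21 to 36 without (log2 fold change 0.01, adjusted p = 0.984 by edgeR). Because NLGN4X and NLGN4Y share part of their sequence, their counts may be split between them. LRRTM3 had 11, 0 and 10 counts in PDGF and none in PDGFNO, while LRRTM1 and LRRTM4 had 0 and 2 counts in total.

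**Figure D2:**
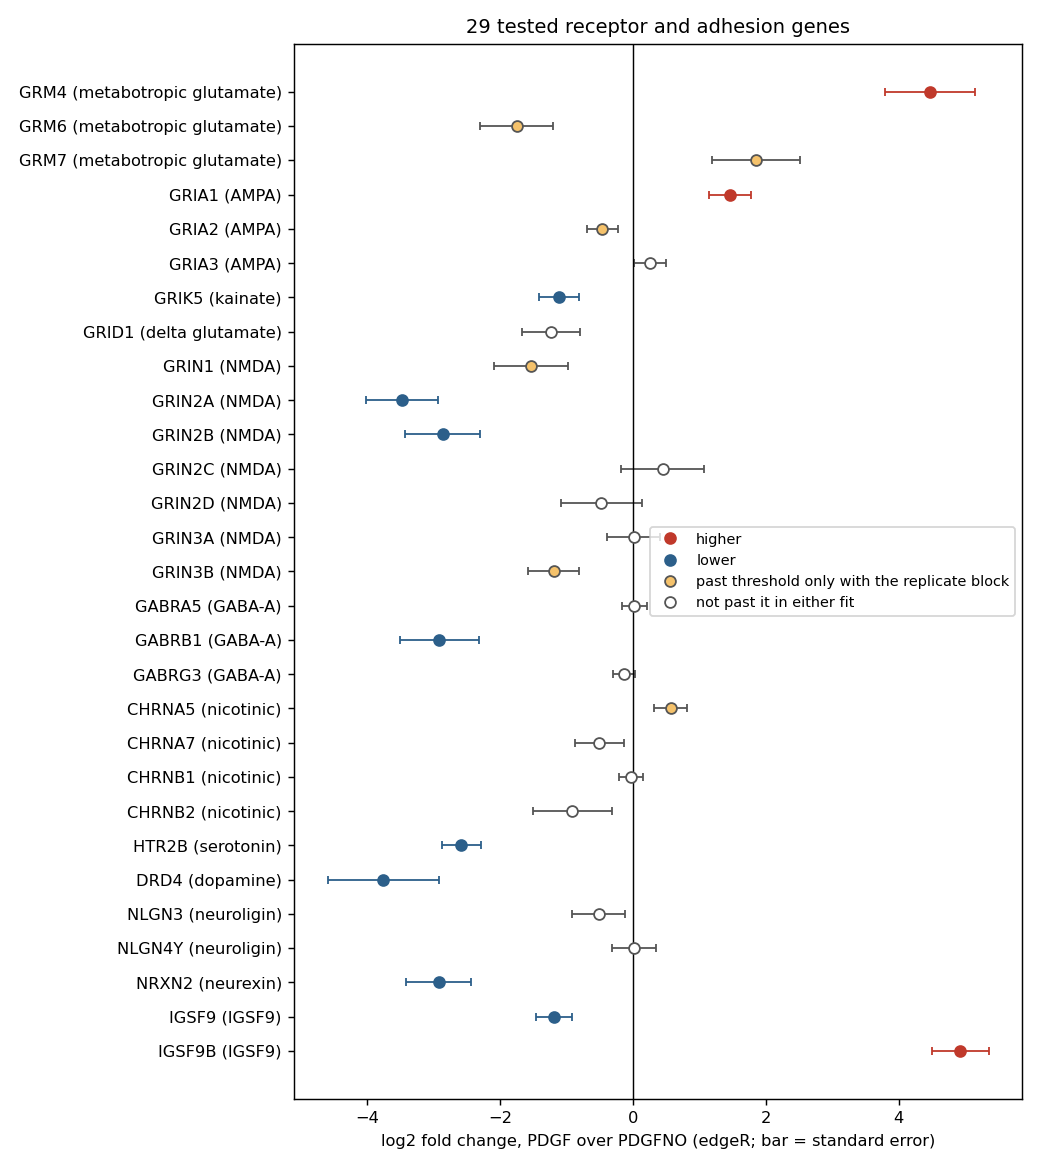
Log2 fold change of PDGF over PDGFNO (x axis) with its standard error for 29 of the 31 tested genes, ordered by family. Filled red and blue points passed the threshold without a block (3 higher, 8 lower), orange points did so only with the replicate block (6 genes), and open points in neither fit.

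A further 15 receptor and adhesion genes had 20 or more counts but too few per library for the filter. For these the ratio of group totals was computed with an exact binomial (Clopper-Pearson) 95% interval, which covers counting error only and not the spread between libraries. Next to the limit of 20 counts stood LRRTM3 with 21, DRD2 and NLGN4X with 22 and, below it, HTR2C with 17 and GRIK4 and NRXN3 with 15. Against a floor of 3 counts over the group DRD2 was at least 9.14-fold lower with PDGF, while its exact interval, a wider bound, began at 6.83-fold. CHRNE, the adult epsilon subunit of the muscle nicotinic receptor, had 1, 4 and 1 counts in PDGF and 5, 12 and 24 in PDGFNO, a ratio of 8.52 without over with PDGF (95% interval 3.60 to 24.5). Both passed the threshold when 20 counts in total was the only filter, with edgeR adjusted p of 0.0183 for DRD2 and 0.0479 for CHRNE, in a fit that called 17.7% of all genes, 7.47% higher and 10.2% lower. CHRNE overlaps other genes on the opposite strand over 42.8% of its exon bases. LRRTM3 was at least 5.62-fold higher with PDGF on the same floor, with an exact interval that began at 4.18-fold, but PDGF replicate 2 had no count and its adjusted p in that fit was 0.110. GABRE, CHRNA10 and GRM2 had ratios of 4.36, 3.58 and 2.57 without over with PDGF and intervals above 1, and adjusted p of 0.191, 0.262 and 0.309 in the same fit. In PDGF and PDGFNO, GABRE had 7, 0, 1 and 8, 17, 3 counts, and CHRNA10 7, 0, 1 and 8, 13, 2. GRM2 had 5, 9, 3 and 2, 10, 23 counts and was higher with PDGF in batch 1 (0.85 on the log2 scale). For each of these genes the groups overlapped in CPM. For the other 9 genes, which include the muscarinic receptors CHRM3 and CHRM4, the interval included 1, and this depth could not show a difference.

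**Figure D3:**
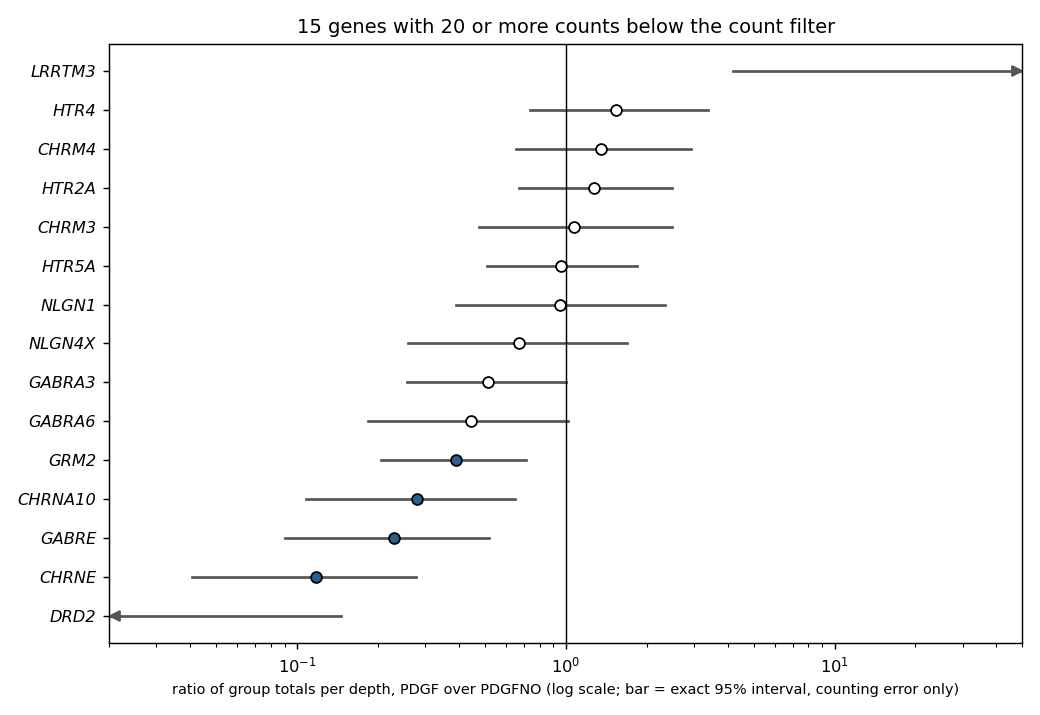
Ratio of group totals per depth, PDGF over PDGFNO (x axis, log scale), with exact 95% intervals for counting error, for the 15 genes below the count filter. Blue points have an interval below 1 and open points an interval that includes 1. DRD2 has no count in PDGF and LRRTM3 has none in PDGFNO, so their arrows run off the axis and no point is drawn.

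Levels were compared between genes as mean CPM per kilobase of annotated exon, with lengths from the RefSeq annotation of Mmul_10. In PDGFNO the order began with GRIK5 at 13.4, HTR2B at 8.85, CHRNB1 at 6.24, GRIA2 at 5.07 and GABRA5 at 5.03. In PDGF it began with GRIK5 at 6.21, CHRNB1 at 6.10, GABRA5 at 5.11, CHRNA5 at 3.97 and GRIA2 at 3.69, and HTR2B stood at 1.47. Neighbours in this order such as GRIK5 and CHRNB1 with PDGF, or GRIA2 and GABRA5 without it, lay within the spread of their libraries. At the low end GRIN2A and GRIN2B were at 0.154 and 0.0947 in PDGFNO and at 0.0133 and 0.0122 in PDGF. IGSF9B, GRM4 and GRIA1 rose only to 0.473, 0.943 and 0.765, below the level that GRIK5, CHRNB1 and GABRA5 held in either group. The abundant GABRA5, GABRG3, CHRNB1 and GRIA3 thus did not pass the threshold, while 9 of the 11 called genes, all but GRIK5 and HTR2B, were below 10 CPM in both group means.

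**Figure D4:**
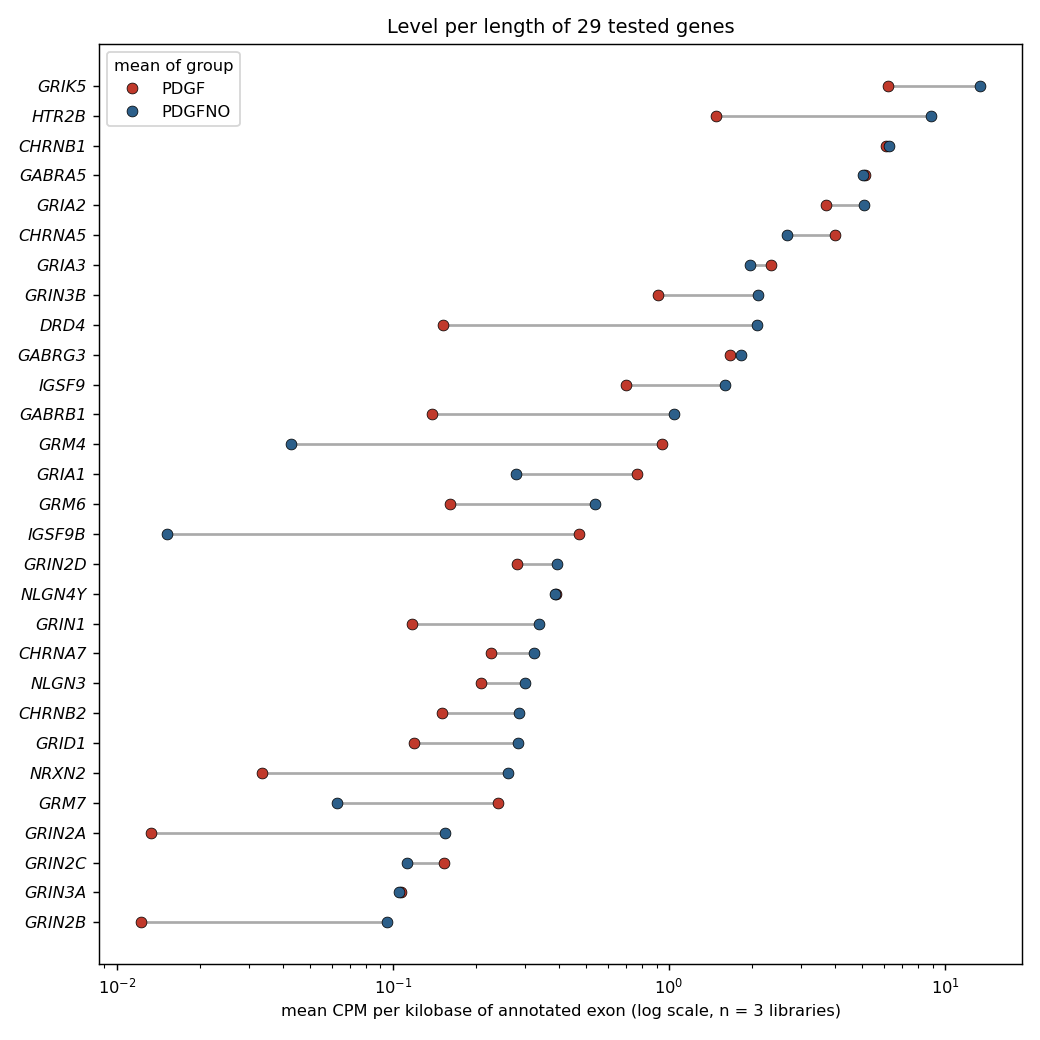
Mean CPM per kilobase of exon (x axis, log scale) in PDGF and PDGFNO for 29 of the 31 tested genes, ordered by the higher of both means, with a line joining the groups. GRIK5 and HTR2B lead in PDGFNO at 13.4 and 8.85, and the widest gaps belong to IGSF9B, GRM4, DRD4 and GRIN2A.

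Partners of these receptors were taken from lists of scaffolds, auxiliary proteins, transmitter enzymes and transporters, and other synaptic adhesion genes, and their counts are to be read against the 7.61% of all genes called higher and 10.7% called lower. Of 22 tested synaptic scaffolds, 2 were higher and 1 was lower, and their median log2 fold change was -0.03. SHANK1, a postsynaptic scaffold, was higher at 7.23 ± 2.00 CPM against 2.26 ± 0.534 CPM (SD, n = 3, log2 fold change 1.68, adjusted p = 0.00996 by edgeR), CASK, which binds neurexins inside the cell, rose (0.54, adjusted p = 0.0460 by edgeR), and SHANK2 fell, with 0, 0 and 2 counts in PDGF and 10, 9 and 9 in PDGFNO (-3.87, adjusted p = 0.0183 by edgeR). Of 11 receptor auxiliary genes tested, none was higher and 3 were lower, with a median of -0.34: CACNG7, an AMPA receptor auxiliary subunit, PICK1, which binds AMPA subunits, and GABARAP, which binds GABA-A receptors, with log2 fold changes of -0.92, -1.12 and -0.57. Of 14 transmitter synthesis and clearance genes, 1 was higher and 3 were lower, with a median of -0.29. SLC18A1, a vesicular monoamine transporter, rose from 1.62 to 11.8 CPM (log2 fold change 2.86, adjusted p = 3.61e-04 by edgeR), while MAOB, which degrades monoamines, fell from 40.8 to 8.05 CPM (-2.34, adjusted p = 4.42e-04 by edgeR), and SLC6A6 and SLC44A1, carriers of taurine and choline, fell by 0.96 and 0.75 on the log2 scale. Of 27 other synaptic adhesion genes, 4 were higher and 8 were lower, with a median of -0.23. LRFN5, FLRT3 and CADM4 had the largest increases (log2 fold changes 1.70, 1.43 and 1.36), and NTRK3, CADM1 and PTPRD the largest decreases (-5.40, -2.57 and -2.08). The calls of CASK, CACNG7, SLC44A1, SHANK2, PICK1, PTPRD and GABARAP were each lost without PDGFNO replicate 2 (edgeR adjusted p from 0.0528 for GABARAP to 0.164 for CACNG7) and, in part, without other libraries, and that of CADM1 without PDGFNO replicate 3 (0.0501).

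Marker sums for spermatids and peritubular myoid cells (176 to 207 CPM with PDGF, 354 to 414 CPM without) were lower with PDGF, as were most of the called genes, and their part in these results was not tested. Within the spermatid list TNP1 and TNP2 had log2 fold changes of -3.30 and -3.17, and in the peritubular myoid and pericyte list DES and ACTA2 had -3.27 and -1.19, whereas RGS5 rose by 1.94 on the log2 scale. Of the HTRA protease genes, HTRA3 was at 4.39, 7.59 and 7.44 CPM in PDGF and at 2.87, 3.93 and 2.94 CPM in PDGFNO (log2 fold change 0.99, adjusted p = 0.0557 by edgeR, or 0.00291 with the block). HTRA2 was at 45.9 ± 13.3 and 46.5 ± 3.63 CPM (SD, n = 3), shares 44.7% of its 50-base stretches with neighbouring transcripts, and did not differ beyond the spread between libraries. GRID2IP had 35 counts over the PDGF libraries and 13 over the PDGFNO libraries, and HTRA4 had none.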

How the data were processed

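Bulk RNA sequencing libraries, 3 labelled PDGF and 3 PDGFNO, were analysed; groups, replicates and batches came from the labels. The authors deposited expected counts per gene symbol, that is raw counts without normalization, of which 34 values in 13 genes, none of them a member, are not whole numbers, and all were rounded. Per the submitters' processing notes, fastp, HISAT2 2.1.0, SAMtools and featureCounts 2.0.1 were used, and the builds Mmul_10 and Mmul_8.0.1 are named without a role; annotation and strand setting are not given in the sources used here, so Mmul_10 coordinates, lengths and sequences describe the RefSeq reference only.

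edgeR 4.0.16 (R 4.3.3) with TMM, filterByExpr and a quasi-likelihood test without a block was fitted to all genes, with Benjamini-Hochberg adjustment. The SE of a log2 fold change was its size over the root of the F statistic. Differences within a batch used 0.5 added counts. Depth was 10593805 to 14102697 counts; intervals and floors cover counting error only, as PCR duplicates cannot be recognised. Libraries of the same batch deviated together, with r = 0.73, 0.35 and 0.37 for same-numbered replicates 1, 2 and 3. Crossed pairs of replicates 2 and 3 gave 0.39 and 0.36, so within batch 2 no pairing by number was seen. Same-numbered libraries share a batch by the labels, and the number was used as a block in an alternative. Other alternatives used RLE, upper quartile or no factors, other filters, DESeq2 1.42.0, limma-voom (limma 3.58.1), batch terms, summed replicates and each library left out. The fit was tested on simulated data. Some genes counted here are not reported singly. Members and lists were chosen with earlier results of these data known. Every called member and, per list, up to 3 called genes per direction were to be named; others named were chosen after their values were seen. Tables and figures were made with matplotlib 3.10.9, scipy 1.17.1 and pandas 2.3.3 in Python 3.11.15.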

Additional observations from a re-analysis of the deposited data

How the results depend on the processing

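Against 3 members higher, 8 lower and 2108 genes called in all, the counts were 5, 12 and 6934 with the replicate block, 5, 13 and 6991 with batch as a term, and 4, 14 and 6126 in batch 2 alone. With replicates 2 and 3 summed they were 2, 5 and 693, and with batch added to that model, a setting chosen after seeing the data, 5, 14 and 7089. At least 10 counts in every library, which removes genes that fell to few counts, left 1 higher, 3 lower and 1559 genes called. With each library left out in turn, 2 to 4 members were higher, 4 to 12 lower and 1168 to 3010 genes called. Genes that only a setting's own filter admits are included in its counts. RLE, upper quartile and no factors gave 3 and 8, limma-voom 3 and 9, DESeq2 3 and 11, and 20 counts in total as the only filter 3 and 10. The 11 called members kept their direction in all 191 alternative values and their side of the threshold in 172; the 19 others were lost with a library left out or with replicates summed. The block lost no call among the members. Signs changed only among the 20 other tested genes compared. GABRA5 was at -0.037 with upper quartile factors, -0.0097 with 10 counts in every library, -0.14 in batch 2 alone and -0.13 to 0.11 with a library left out. NLGN4Y was at -0.050, -0.021, -0.13 and -0.13 to 0.33 in the same settings. GRIN3A was at -0.053 with upper quartile factors, -0.019 with replicates summed, -0.0033 with batch added and -0.048 to 0.13 with a library left out. In batch 2 alone CHRNB1 was at 0.036 and HTRA2 at 0.12. With a library left out, CHRNB1 ranged from -0.12 to 0.046, HTRA2 from -0.17 to 0.21, GRIN2C from -0.0033 to 1.23 and GRIN2D from -0.86 to 0.22. The causes were not tested. Depth limits the 28 members with 1 to 19 counts, for which no difference is reported singly. Some of them entered settings with other filters, such as the 52 members tested by DESeq2.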
